A study of Mus musculus with 4 samples.

Results

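Genes of the BCL2 family that keep cells alive or start their death were examined in *in vitro* MDSCs, immature myeloid cells that suppress T cells and are grown from bone marrow. The 10 genes were taken by symbol from the 24346 genes of the tables: the survival genes *Bcl2*, *Bcl2l1*, *Mcl1*, *Bcl2a1b* and *Bcl2a1d*, the effectors *Bax* and *Bak1*, and *Bid*, *Bcl2l11* and *Bbc3*, which encode BH3-only proteins. The rule names them by symbol and uses no value of the tables, but it was set with earlier results of these data known. All 10 passed the filter on low values and were tested.

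Bone marrow of C57BL/6J female mice aged 6 to 8 weeks was cultured for 4 days with 40 ng/ml GM-CSF in every group. The Control group (n = 2 libraries) received nothing more, and the G-CSF group (n = 2 libraries) received 5 ng/ml G-CSF as well, so that the comparison asks what the addition of G-CSF does to cells already under GM-CSF. The RNA came from whole cultures without sorting, which hold monocytic and granulocytic cells side by side, and single-end reads of 75 bases were taken from stranded mRNA libraries. Levels are in FPKM, fragments scaled to the length of a gene's transcript and to the reads mapped in its library, so that genes can be compared with each other per length.

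The family sets the threshold at which the outer mitochondrial membrane is opened. BAX and BAK form pores in that membrane, the survival proteins hold them and their activators in check, and BH3-only proteins either bind the survival proteins or activate BAX and BAK directly. Once the membrane is open, cytochrome c is released and caspases are activated. Myeloid cells are known to depend on MCL1 and on A1, the protein of the *Bcl2a1* genes, and mature neutrophils on MCL1 in particular.

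The mouse carries several near-identical *Bcl2a1* copies, and reads of 75 bases cannot always be assigned to one of them. *Bcl2a1d* (chr9:88723285-88731914, minus strand, GRCm38), *Bcl2a1a* (chr9:88956900-88962419, plus strand) and *Bcl2a1b* (chr9:89199209-89207827, plus strand) lie in the same part of chromosome 9, and *Bcl2a1c* (chr9:114330135-114330578, plus strand) lies apart from them. The first 3 have coding sequences of 516 bases in which 12 positions differ in any copy. *Bcl2a1b* and *Bcl2a1d* differ at 6 of them (98.8% identical), *Bcl2a1a* and *Bcl2a1d* at 7 (98.6%) and *Bcl2a1a* and *Bcl2a1b* at 11 (97.9%). The start of the coding sequence, coding bases 1 to 90 in exon 1 of 2, is shown to let the copies be compared, with the 6 positions that differ in any of them in capitals.
Bcl2a1a, chr9:88957051-88957140, plus strand: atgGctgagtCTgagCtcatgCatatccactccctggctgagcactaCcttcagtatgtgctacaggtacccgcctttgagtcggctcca
Bcl2a1b, chr9:89199360-89199449, plus strand: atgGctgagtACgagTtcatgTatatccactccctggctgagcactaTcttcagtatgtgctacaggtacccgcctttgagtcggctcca
Bcl2a1d, chr9:88731630-88731719, minus strand: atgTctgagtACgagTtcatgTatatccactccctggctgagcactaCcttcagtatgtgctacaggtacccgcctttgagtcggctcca

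A read within the coding sequence that covers none of the differing positions fits *Bcl2a1a*, *Bcl2a1b* and *Bcl2a1d* alike. Of the 75-base windows of *Bcl2a1b*, 508 of 743 (68.4%) also occurred in the transcripts of another gene, among them *Bcl2a1a*, *Bcl2a1d* and the overlapping gene *Gm29094*. The share was 67.6% (533 of 789) for *Bcl2a1d* and 55.2% for *Bcl2a1a*, against 3.78% for *Bcl2a1c*. Values of the single copies are therefore uncertain, and their sum is given as well. Among the other members, *Bax* shared 6.84% of its windows with the overlapping *Gm45808*, and the remaining 7 shared none.

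The likeness reached into the promoters. In the RefSeq promoters (GRCm38.p6, 250 bases before to 50 after the start site), 84 bases were the same in *Bcl2a1a*, *Bcl2a1b* and *Bcl2a1d*. The run began 187 bases upstream of the start site in *Bcl2a1a* (chr9:88956733-88956816), 231 in *Bcl2a1b* (chr9:89199042-89199125) and 181 in *Bcl2a1d* (chr9:88731948-88732031, minus strand). It is printed once because the 3 promoters hold the same letters there.
shared promoter run of Bcl2a1a, Bcl2a1b and Bcl2a1d: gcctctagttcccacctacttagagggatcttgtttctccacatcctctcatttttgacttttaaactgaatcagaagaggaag

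The members had 15 promoters in that table, since *Bcl2l11*, *Bcl2l1* and *Bbc3* have several start sites. The FOXO core motif GTAAACA, searched on both strands, stood in 1 promoter of *Bcl2l11* and 1 of *Bbc3*, both known as genes that FOXO transcription factors can activate, and in no other member. Of all 32851 promoters of the same length, 3.65% held it. The windows around the matches are shown with the motif in capitals, as read on the plus strand of the genome. The match began 227 bases upstream of the start site in *Bcl2l11* and 167 bases upstream in *Bbc3*, where the motif lies on the minus strand.
Bcl2l11, chr2:128125788-128125844, plus strand: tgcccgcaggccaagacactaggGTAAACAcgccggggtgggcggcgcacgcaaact
Bbc3, chr7:16310067-16310127, plus strand: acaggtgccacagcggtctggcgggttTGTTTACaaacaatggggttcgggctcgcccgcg

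The STAT motif TTCNNNGAA, the form bound by the STAT proteins that G-CSF and GM-CSF activate, was found in no promoter of a member and in 8.3% of all promoters. The NF-kB motif was found in 1 promoter of *Bcl2l1* and in 1 of *Bbc3*, where 3 matches on both strands overlapped one another, and in 8.46% of all promoters. None of these matches overlapped a FOXO match. They describe letters in the sequence, and no binding was measured.

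Depth, estimated from the steps of the low values, was 13.4 and 14.2 M mapped reads in Control and 12.4 and 15.6 M with G-CSF, and 11590 genes were tested with limma on log2(FPKM + 0.1). Every fold change below is on that scale, as G-CSF over Control. Adjusted p is the Benjamini-Hochberg value over all of them. Among the genes tested, 1336 were lower and 1479 were higher at an adjusted p under 0.05, and the median log2 fold change was 0.001. The p-values set each difference against the spread between libraries of a group, which limma draws towards that of genes of similar level. Standard errors and intervals thus rest in part on other genes. The labels do not say whether the libraries of a group came from separate animals. An entry on RNA extraction names liver, but the hepatocyte genes *Alb*, *Apoa1* and *Ttr* stood at 0 FPKM in all 4 libraries.

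In this comparison 3 of the 10 members fell, *Mcl1*, *Bcl2a1b* and *Bcl2l11*, with an adjusted p under 0.05 (limma), while 11.5% of all genes tested fell by the same rule. None of the 10 rose, against 12.8% of all genes, and 0 passed a fold change of 2 with that adjusted p, against 1.46% of all genes. At an unadjusted p under 0.05 (limma), 5 members were lower and 1 was higher. Such values were common among all genes, where they were not counted by direction. *Nfkb1*, a gene of the lists below with an unadjusted p of 0.0391 (limma), ranked 4219 of 11590 by p. *Bnip3*, a related gene just past the threshold with an unadjusted p of 0.0516 (limma), ranked 4586. Both directions together, the genes that passed this rule thus numbered between 4219 and 4586 of 11590. With limma voom on estimated reads 1 member, *Bak1*, passed as higher at an adjusted p under 0.05, beside 16.6% of all genes. The members' log2 fold changes lay between -0.43 and 0.12 with a median of -0.25. Both G-CSF libraries lay below both Control libraries in 7 of 10 members and in 32.6% of all genes tested. Both lay above them in 2 members, *Bak1* and *Bid*, and in 33.8% of all genes. Only the libraries of *Bax* overlapped between the groups.

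**Figure D1:**
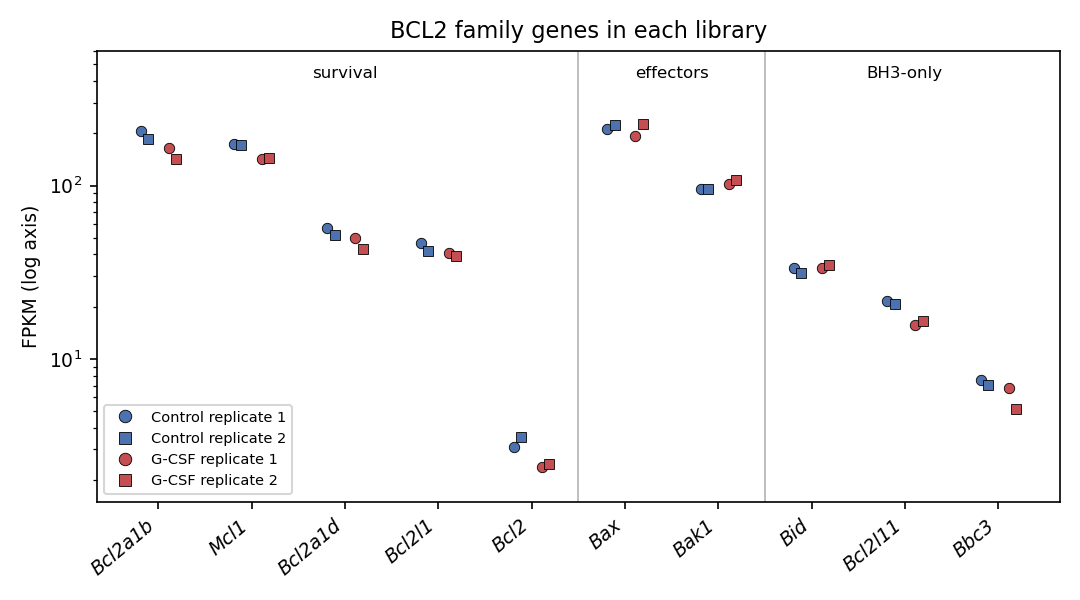
Level of each of the 10 genes in FPKM (log axis) in the 4 libraries, with Control in blue and G-CSF in red, circles for replicate 1 and squares for replicate 2, grouped by role. Both red points lie below both blue points in all 5 survival genes, and the blue and red points of *Bax* overlap.

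The order of the levels was the same in both groups: *Bax*, *Bcl2a1b*, *Mcl1*, *Bak1*, *Bcl2a1d*, *Bcl2l1*, *Bid*, *Bcl2l11*, *Bbc3* and *Bcl2*, from the highest to the lowest. In Control, no gene overlapped its neighbour in that order. With G-CSF, only *Bcl2a1b* and *Mcl1* did, so that their order there is within the spread of the libraries. That order takes the *Bcl2a1* copies as separate genes, and their places depend on how shared reads were assigned. Summed, the 4 copies had 328 and 295 FPKM in Control and 261 and 235 FPKM with G-CSF, above *Bax* in every library. *Bcl2a1b* and *Bcl2a1d* together had 263 and 238 FPKM in Control, above *Bax*, and 214 and 185 FPKM with G-CSF, where they overlapped it. *Bax* stood above 96.6% of the genes tested and *Bcl2*, the gene that gave the family its name, above only 21.1%. *Bcl2* was the lowest of the 10 members, while some other genes of the family lay lower, such as *Bcl2l10* and *Hrk* at 0 FPKM.

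All 5 survival genes were lower in both G-CSF libraries than in either Control library, against 32.6% of all genes tested, and 2 of them passed the test, against 11.5% of all genes. Most windows of *Bcl2a1b* and of *Bcl2a1d* also occur in transcripts of other genes, each other's among them, so their values are not separate observations. *Mcl1* (chr3:95658788-95663176, plus strand), whose short-lived protein binds BAK and the BH3-only proteins, stood at 173 and 172 FPKM in Control and at 142 and 145 FPKM with G-CSF. Each G-CSF library lay well below each Control library, and the replicates of a group differed little. *Mcl1* fell from 172 ± 0.877 to 143 ± 2.11 FPKM (SD, n = 2 each), which is 16.9% lower. On the log2 scale the difference was -0.27 (standard error 0.0405, 95% interval -0.36 to -0.17, adjusted p = 0.00829, limma). It rested on between 5653 and 7812 estimated reads per library, the most of any member. When any 1 library was omitted, the difference stayed between -0.28 and -0.25 and its adjusted p between 0.0223 and 0.0354 (limma).

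*Bcl2a1b* encodes A1, a small survival protein of blood cells whose gene NF-kB is known to activate. Its values were 206 and 186 FPKM in Control and 164 and 142 FPKM with G-CSF. The groups did not overlap, although the replicates of each lay about as far apart as the nearest libraries of different groups. *Bcl2a1b* fell from 196 ± 13.8 to 153 ± 15.6 FPKM (SD, n = 2 each), 22.2% lower, or -0.36 on the log2 scale (standard error 0.0806, 95% interval -0.56 to -0.17, adjusted p = 0.0236, limma). Its call was lost without Control replicate 1 (adjusted p = 0.0737), without G-CSF replicate 2 (0.0591) and with no filter on low values (0.0712), and over all alternatives its adjusted p lay between 0.000909 and 0.0737 (limma).

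*Bcl2a1d*, the other member among the copies, stood at 56.8 and 51.8 FPKM in Control and at 49.7 and 43.0 FPKM with G-CSF. Both G-CSF libraries were below both Control libraries, by less than in *Bcl2a1b*. The means were 54.3 ± 3.58 and 46.3 ± 4.76 FPKM (SD, n = 2 each), and the log2 fold change of -0.23 (standard error 0.082, 95% interval -0.43 to -0.03) did not pass the test (adjusted p = 0.086, limma). Without G-CSF replicate 1 it passed (adjusted p = 0.0361, limma), and with a library omitted its log2 fold change lay between -0.34 and -0.13. *Bcl2a1a*, a copy outside the member list, had 63.7 and 55.01 FPKM in Control and 46.4 and 47.9 FPKM with G-CSF, with no overlap. It fell by 0.33 on the log2 scale (standard error 0.0742, adjusted p = 0.0247, limma), a call lost without Control replicate 1 (adjusted p = 0.0722), without G-CSF replicate 1 (0.0754) and in at least 1 of the other alternatives (adjusted p between 0.00739 and 0.0678). *Bcl2a1c* had between 1.36 and 1.90 FPKM and was too low to be tested.

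Because reads can move between copies, the 4 copies were also summed. The sum was 328 and 295 FPKM in Control and 261 and 235 FPKM with G-CSF, again without overlap. It fell from 311 ± 23.6 to 248 ± 18.9 FPKM (SD, n = 2 each), which is -0.33 on the log2 scale (standard error 0.0729, 95% interval -0.50 to -0.15, adjusted p = 0.0234 over 11588 rows, limma). The split between the copies was nearly the same in every library: *Bcl2a1b* held between 60.5% and 63.3% of the sum, *Bcl2a1a* between 17.8% and 20.4%, *Bcl2a1d* between 17.3% and 19.01% and *Bcl2a1c* between 0.482% and 0.809%. As the shared windows show, this split depends on how shared reads were assigned, which the sources used here do not give.

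*Bcl2l1* (chr2:152780668-152831728, minus strand) encodes BCL-XL and, by splicing, the shorter BCL-XS, which gene-level values do not separate. It had 46.6 and 42.0 FPKM in Control and 40.8 and 39.4 FPKM with G-CSF. The G-CSF libraries were lower, but the nearest pair lay closer together than the 2 Control libraries. Its log2 fold change of -0.14 (standard error 0.0633, 95% interval -0.30 to 0.01) did not pass the test (adjusted p = 0.147, limma). *Bcl2* (chr1:106538178-106714274, minus strand), the founding survival gene of the family, stood at 3.08 and 3.55 FPKM in Control and at 2.38 and 2.48 FPKM with G-CSF. It had the largest fold change of the members, -0.43 on the log2 scale or 25.7% lower, and no overlap between the groups. It rested on 142 to 242 estimated reads per library. With a standard error of 0.133 and a 95% interval from -0.75 to -0.11, it did not pass the test (adjusted p = 0.0601, limma), but it passed with voom on estimated reads (adjusted p = 0.0293), and over the alternatives that kept all libraries its adjusted p lay between 0.0293 and 0.127.

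**Figure D2:**
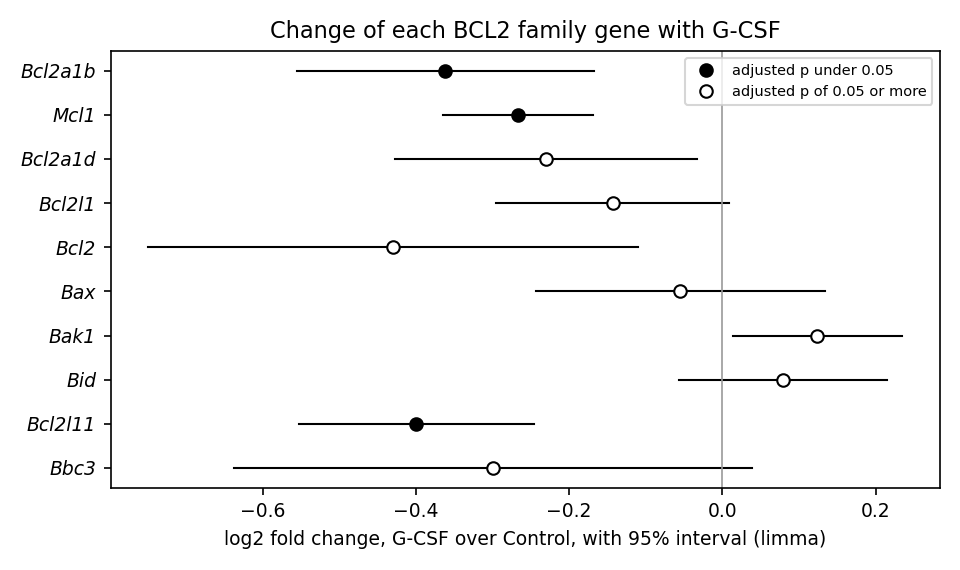
Log2 fold change of each of the 10 genes, G-CSF over Control, with its 95% interval from limma. Filled points are genes with an adjusted p under 0.05 (*Bcl2a1b*, *Mcl1* and *Bcl2l11*) and open points are the other members, and the line at 0 marks no difference.

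Neither effector passed the test. *Bax* (chr7:45461697-45466898, minus strand), whose protein moves from the cytosol to mitochondria when cells die, had 212 and 224 FPKM in Control and 194 and 227 FPKM with G-CSF. The G-CSF libraries held both its lowest and its highest value. Its means were 218 ± 8.90 and 210 ± 23.6 FPKM (SD, n = 2 each), and the difference was -0.06 on the log2 scale (95% interval -0.24 to 0.13, adjusted p = 0.642, limma). The sign turned without G-CSF replicate 1, to 0.059, and the interval leaves room for a small difference either way.

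*Bak1* (chr17:27019810-27029009, minus strand) encodes BAK, which sits in the mitochondrial membrane and is held there by MCL1 and BCL-XL. Its values were 95.3 and 96.2 FPKM in Control and 102 and 107 FPKM with G-CSF. Both G-CSF libraries lay above both Control libraries. Its log2 fold change was 0.12 (standard error 0.0459, 95% interval 0.01 to 0.23), which did not pass the test (adjusted p = 0.0956, limma). The call changed with the tool: limma voom on estimated reads gave an adjusted p of 0.0428, and over the alternatives that kept all libraries the value lay between 0.0428 and 0.147.

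Among the BH3-only genes, *Bcl2l11* fell. It lies at chr2:128126038-128162547 on the plus strand and encodes BIM, which binds every survival protein of the family and is known to set the life span of granulocytes and lymphocytes when growth factors are withdrawn. It stood at 21.6 and 20.7 FPKM in Control and at 15.6 and 16.5 FPKM with G-CSF. The groups lay far apart compared with the spread within each. *Bcl2l11* fell from 21.2 ± 0.662 to 16.0 ± 0.610 FPKM (SD, n = 2 each), 24.2% lower, or -0.40 on the log2 scale (standard error 0.0636, 95% interval -0.55 to -0.25, adjusted p = 0.0094, limma). When any 1 library was omitted, the difference stayed between -0.44 and -0.36 and the adjusted p between 0.0184 and 0.0382 (limma). Its isoforms (BIM-EL, BIM-L and BIM-S), which differ in how strongly they kill, are joined in 1 value.

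*Bbc3* (chr7:16308393-16318205, plus strand) encodes PUMA, which p53 and FOXO factors are known to induce. It had 7.51 and 7.05 FPKM in Control and 6.77 and 5.14 FPKM with G-CSF. Both G-CSF libraries were lower, replicate 1 only just, and they differed from each other more than the Control libraries did. The log2 fold change of -0.30 (standard error 0.141, 95% interval -0.64 to 0.04) did not pass the test (adjusted p = 0.167, limma). It was -0.49 without G-CSF replicate 1, where it passed (adjusted p = 0.0476, limma), and -0.10 without G-CSF replicate 2. Between 129 and 161 reads per library were estimated for it.

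*Bid* (chr6:120891930-120916853, minus strand), which caspase-8 cuts to link death receptors to the mitochondria, had 33.3 and 31.2 FPKM in Control and 33.5 and 34.6 FPKM with G-CSF. The groups were apart only by the small gap between Control replicate 1 and G-CSF replicate 1. Its log2 fold change was 0.08 (95% interval -0.06 to 0.21, adjusted p = 0.343, limma).

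Added up by role, the levels of the survival genes came to 486 and 456 FPKM in Control and to 399 and 372 FPKM with G-CSF. The effectors came to 307 and 320 FPKM in Control and to 295 and 334 FPKM with G-CSF, and the BH3-only genes to 62.5 and 58.9 FPKM against 55.9 and 56.2 FPKM. The survival and BH3-only sums were lower in both G-CSF libraries, while the effector sums overlapped. The ratio of the survival sum to the effector sum was 1.58 and 1.42 in the Control libraries and 1.35 and 1.11 in the G-CSF libraries, so that the groups did not overlap but the G-CSF libraries differed from each other by more than the gap between the groups. The survival sum holds *Bcl2a1b* and *Bcl2a1d* but not *Bcl2a1a*, *Bcl2a1c* or the survival gene *Bcl2l2*. It and the ratio thus depend on how reads were split between the copies. Without the *Bcl2a1* copies, the sum of *Mcl1*, *Bcl2l1* and *Bcl2* was 223 and 217 FPKM in Control and 185 and 187 FPKM with G-CSF. These sums were not tested, and they are levels of mRNA, not of protein.

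**Figure D3:**
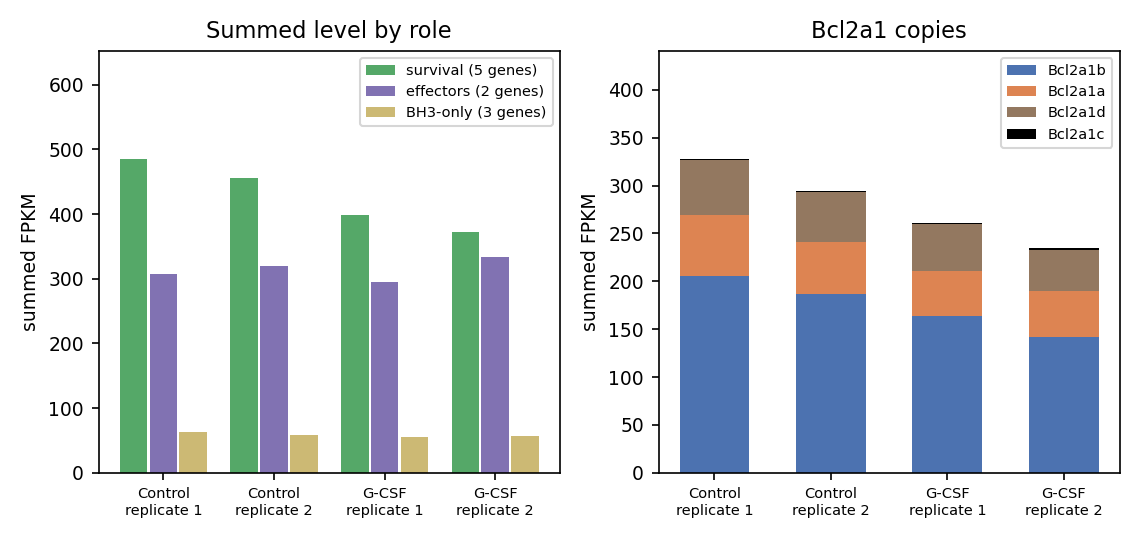
Left, summed FPKM of the 5 survival genes, the 2 effectors and the 3 BH3-only genes in each library. Right, summed FPKM of the 4 *Bcl2a1* copies, stacked by copy. The survival sum is 456 and above in Control and 399 and below with G-CSF, and *Bcl2a1b* makes up between 60.5% and 63.3% of the copies in every library.

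Markers of several cell types moved with these falls. Single genes are said to fall or rise here at an adjusted p under 0.05 (limma), as 11.5% and 12.8% of all genes tested did. The summed level of the dendritic cell genes *Itgax*, *Flt3*, *H2-Ab1* and *Cd74* was 2206 to 2570 FPKM in Control and 1170 to 1444 FPKM with G-CSF, and 3 of the 4 fell. All 3 macrophage genes fell (summed 323 to 359 against 261 to 285 FPKM), as did 3 of 4 genes of mast cells and basophils (79.1 to 79.2 against 51.1 to 55.5 FPKM) and 2 of 3 genes of eosinophils (260 to 338 against 162 to 208 FPKM). Of 6 genes of immature myeloid cells, *Itgam*, *S100a9* and *Csf3r*, which encodes the G-CSF receptor, fell and *Mpo*, a gene of early granulocytes, rose, and their sum was 58692 to 68357 FPKM against 47002 to 47208 FPKM. *Ly6g* was not analysed here. Single genes weighed heavily in these sums: the highest value of any 1 gene was 2016 FPKM among the dendritic cell genes and 35613 FPKM among those of immature myeloid cells. Genes of T cells were low, at a sum of 2.67 to 2.86 FPKM in Control and 1.20 to 1.40 FPKM with G-CSF. *Cd3d* and *Cd8a*, the 2 of them tested, both fell. Genes of B cells summed to 1.67 to 2.12 against 0.848 to 1.06 FPKM, and *Cd79a*, 1 of 2 tested, fell. Those of red cells summed to at most 1.67 FPKM, and 0 of them were tested. No marker of these 3 cell types was at 0 in every library. The part of these shifts in the lower values of *Mcl1*, *Bcl2a1b* and *Bcl2l11* was not tested. In RNA of whole cultures, fewer cells of a type and less RNA per cell cannot be told apart. By flow cytometry of cultures grown the same way, the paper found the percentages of dendritic cells and macrophages not affected by G-CSF. It found a larger proportion of monocytic MDSCs and a smaller one of granulocytic (PMN) MDSCs.

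The other genes of the pathway were described from 5 lists, of which 66 genes were tested. Of these, 11 rose and 7 fell at an adjusted p under 0.05 (limma), which is 16.7% and 10.6% of them beside 12.8% and 11.5% of all genes tested, and no gene passed with a fold change over 2. *Cycs*, *Birc5*, *Fas*, *Relb* and *Myc* passed whichever library was omitted, while the other 13 of the 18 lost the call at least once. Of the 18, only 5 passed without Control replicate 1, 9 without Control replicate 2, 8 without G-CSF replicate 1 and 9 without G-CSF replicate 2.

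Among 10 other BCL2 family genes tested of 16, 1 rose and 1 fell, with a median log2 fold change of 0.05. The fall was that of *Bcl2a1a*. *Bcl2l12*, a divergent family member, stood at 9.46 and 10.1 FPKM in Control and 11.9 and 12.3 FPKM with G-CSF. It rose by a log2 fold change of 0.30 (adjusted p = 0.0319, limma), and by 0.26 to 0.35 with a library omitted. Its call was lost with no filter on low values (adjusted p = 0.0605, limma). The BH3-only genes *Bad*, *Bmf* and *Pmaip1* had log2 fold changes of -0.07, -0.15 and 0.11 and overlapped between the groups, as did the survival gene *Bcl2l2* at -0.01. *Bcl2l10* and *Hrk* were listed at 0 FPKM in all libraries, and *Bok* and *Bik* were below 0.5 FPKM.

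Downstream of the membrane, among the 17 genes of the apoptosome, the caspases and their inhibitors, 4 rose and 2 fell, with a median of 0.04. *Cycs*, the gene of cytochrome c, had 43.9 and 44.2 FPKM in Control and 56.6 FPKM in both G-CSF libraries and rose by a log2 fold change of 0.36 (adjusted p = 0.00532, limma). *Birc5*, whose protein survivin acts mainly in cell division, had 104 and 103 FPKM in Control and 125 and 126 FPKM with G-CSF (log2 fold change 0.28, adjusted p = 0.00741, limma). *Aifm1* and *Htra2*, which encode proteins of the space between the mitochondrial membranes, rose by 0.27 and 0.22. *Casp6*, an executioner caspase, fell by 0.25, from 34.8 and 32.3 to 27.9 and 28.5 FPKM, and *Birc3*, an inhibitor of apoptosis that NF-kB activates, fell by 0.20.

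In the death receptor branch, 2 of 11 genes tested fell, none rose, and the median was -0.08. *Fas*, the receptor itself, stood at 32.8 and 32.1 FPKM in Control and at 21.9 and 24.1 FPKM with G-CSF and fell by 0.49 on the log2 scale (standard error 0.0634, adjusted p = 0.00558, limma), with wide gaps between the groups. *Cflar*, which encodes the caspase-8 inhibitor c-FLIP, fell by 0.25, from 23.5 and 23.8 to 21.0 and 18.7 FPKM (adjusted p = 0.0462, limma). *Casp8*, the caspase that cuts BID, stood at 65.1 and 63.1 FPKM in Control and 62.8 and 64.9 FPKM with G-CSF and overlapped. *Fasl* was not tested and stood at 0.089 FPKM or below.

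Of the genes that control the family's transcription and protein turnover, 15 of 17 were tested, 3 rose and 2 fell, with a median of -0.03. *Relb*, a subunit of NF-kB, had 26.4 and 23.3 FPKM in Control and 16.0 and 15.6 FPKM with G-CSF and fell by 0.65 on the log2 scale (adjusted p = 0.00495, limma). *Nfkb1* and *Rela*, which encode the other NF-kB subunits of the list, were lower without overlap but did not pass (log2 fold changes -0.12 and -0.15, adjusted p = 0.108 and 0.22, limma). *Ddit3*, which encodes the stress factor CHOP, fell by 0.37. *Myc* rose by 0.48, from 54.7 and 52.3 to 79.1 and 70.1 FPKM (adjusted p = 0.00691, limma), and *Trp53*, the gene of p53, and *Hif1a*, the gene of a factor of the response to low oxygen, rose by 0.17 and 0.18. *Foxo3*, a FOXO factor known to act on *Bcl2l11* and *Bbc3*, had 15.2 and 13.5 FPKM in Control and 14.3 and 13.005 FPKM with G-CSF and overlapped. *Usp9x* and *Huwe1*, which encode enzymes that lengthen and shorten the life of the MCL1 protein, had log2 fold changes of 0.06 and 0.09 and did not pass.

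All 13 mitochondrial partners of BAX and BAK were tested, of which 3 rose and none fell at an adjusted p under 0.05 (limma). Their median was 0.13, and 12 of 13 log2 fold changes were above 0, against 5813 of 11590 genes in all. *Slc25a5*, an adenine nucleotide carrier of the inner membrane, rose from 481 and 507 to 582 and 598 FPKM (log2 fold change 0.26, adjusted p = 0.0148, limma). *Vdac1*, a channel of the outer membrane, rose from 115 and 116 to 135 and 133 FPKM (0.21, adjusted p = 0.0149, limma), and its relative *Vdac3* rose by 0.17. *Vdac2*, which holds BAK at the membrane, had 185 and 204 FPKM in Control and 208 and 216 FPKM with G-CSF and did not pass (adjusted p = 0.147, limma).

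**Figure D4:**
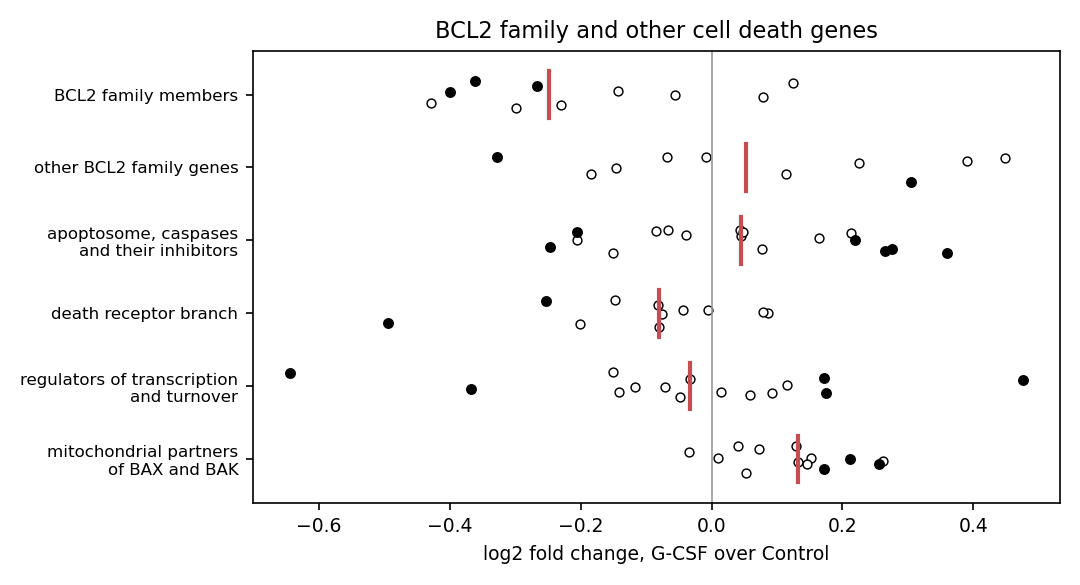
Log2 fold change, G-CSF over Control, of each tested gene in the BCL2 family members and in 5 lists of related genes. Filled points have an adjusted p under 0.05 (limma), open points do not, and the red bars are the medians, which are -0.25 for the members and between -0.08 and 0.13 for the 5 lists.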

How the data were processed

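RNA-seq libraries of *in vitro* MDSCs (2 Control, 2 G-CSF) were analysed from 1 table of values per library. The authors deposited FPKM values, a unit inferred from the values themselves. The submitters' processing notes name the mm10 build, TopHat2 2.0.13, Bowtie2 2.2.3, SAMtools 0.1.19 and Cufflinks 2.2.1. The annotation, the strand setting and the handling of reads that fit several genes are not given in the sources used here, and such handling sets the split between gene copies. Groups and replicate numbers came from the samples' labels.

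Reads were estimated from FPKM, transcript length (GENCODE M21, GRCm38, less 210 bases) and depth. Depth was the value at which most low values fell on whole reads, with 66.3% to 68.2% of them within 0.05 reads. Genes needed 10 estimated reads in 2 libraries and 15 in all, and genes of 200 bases or fewer or without a length were left out. Log2(FPKM + 0.1) was compared with limma 3.58.1 in R 4.3.3 (lmFit and eBayes with trend, two-sided), adjusted by the Benjamini-Hochberg method over 11590 genes. Of these steps only the limma fit was tested on simulated libraries, with changes larger than those of any member. The estimates of depth and reads and the split between gene copies were not part of that test. The alternatives were pseudocounts of 1 and 0.01 FPKM, no filter, a filter of 1 FPKM, upper-quartile and median-ratio scaling, voom on estimated reads, the replicate number as a block, each library left out in turn, and the *Bcl2a1* copies summed. Sequences came from GENCODE M21 and RefSeq. Shared windows were 75-base stretches found in transcripts of another gene.

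All members are named, and of each list the genes with an adjusted p under 0.05, up to the 6 with the smallest p. Other genes named for their role were chosen after their values were seen. Results of some genes of the lists are not reported here. The members and lists were chosen with earlier results of these data known. A group of 2 libraries limits every comparison.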

Additional observations from a re-analysis of the deposited data

How the results depend on the processing

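*Mcl1* and *Bcl2l11* passed an adjusted p under 0.05 in every alternative, and no member passed a fold change of 2 in any. The number of members called was 3 in the reported fit, 5 with voom (*Bcl2*, *Mcl1*, *Bcl2a1b*, *Bak1* and *Bcl2l11*, with 12.7% of all genes lower and 16.6% higher), and between 2 and 5 with each library left out. It was 2 without Control replicate 1 and without G-CSF replicate 2, where *Bcl2a1b* was lost, and 5 without G-CSF replicate 1, where *Bcl2a1d* (adjusted p = 0.0361, limma) and *Bbc3* (0.0476) passed. The log2 fold change of *Bax* lay between -0.17 and 0.059 with each library left out and was above 0 only without G-CSF replicate 1. Of 120 alternative values of single genes, 110 kept their direction and side of the threshold, 6 passed it newly, 3 no longer passed (*Bcl2a1b*) and 1 reversed. The causes were not tested.

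Same-numbered libraries shared part of their deviation from the group means (r = 0.236 across genes, which are not replicates), but the labels do not tie them to a shared animal, batch or day. With the number as a replicate block, 5 members were called, *Mcl1*, *Bcl2a1b*, *Bcl2l11*, *Bcl2* (adjusted p = 0.039, limma) and *Bcl2a1d* (0.00909), and of all genes 16.3% were lower and 17.0% higher (1886 and 1967), more than the 11.5% and 12.8% of the reported fit.

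Over all genes, calls in the reported fit were 1336 lower and 1479 higher. They were 1568 and 1266 with upper-quartile scaling and 1471 and 1926 with voom. Without a filter they were 744 and 882, where more genes were tested. With a library left out they were 672 and 810, 902 and 886, 771 and 723, and 985 and 873. Genes with a fold over 2 numbered 169, and 56 with a pseudocount of 1 FPKM. *Bcl2* and *Bbc3* had the fewest reads of the members, at most 242 estimated per library, and leaving out a library assumes that the lone one varies like the other group.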
